A study of Mus musculus with 12 samples.

Results

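Of the 2798 CpGs in the authors' deposited table of methylation differences, 208 (7.43%) lay at an end of a protein-coding or long noncoding RNA (lncRNA) gene. They were taken by position alone: a CpG counted when it lay no more than 1000 bp beyond, or 100 bp within, an end of a gene span in the GRCm38.p6 gene table of RefSeq. They made 215 site-gene pairs with 177 genes, 118 of them protein-coding and 59 lncRNA, since 6 CpGs lay in the windows of more than 1 gene. Read against all genes of each kind, a listed CpG stood at an end of 0.539% of protein-coding and 0.464% of lncRNA genes. Which gene ends were covered by reads is unknown, so these shares describe the list and not how often gene ends changed.

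The DNA came from splenic CD11c dendritic cells, the antigen-presenting cells of the spleen, of female F1 C57BL/6 mice, all labelled as immunised with OVA (ovalbumin, a model antigen). In the maternal DEHP group (6 libraries) the F0 mothers had received di(2-ethylhexyl) phthalate, a plasticiser, in a daily dose of 37 µg/kg over 10 days, and in the maternal corn oil group (6 libraries) they had received the vehicle; the mothers of both groups were crossed with naive males. The mice bought for the study were 6 to 8 weeks old, and the age of the offspring at sampling, the number of mothers and whether each library is a separate animal are not given in the labels. The note on DNA extraction names spleen tissue besides the dendritic cells. Methylation was read by reduced representation bisulfite sequencing (RRBS), which samples CpG-rich fragments cut by a restriction enzyme.

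Every difference given here is the authors' own contrast of the groups as wholes, in percentage points of methylation, without a value, spread or read depth per library. A positive difference, called a gain, is taken to mean more methylation in the maternal DEHP group than in the maternal corn oil group. The sign follows the deposited hypermethylated and hypomethylated lists, and neither the labels nor the headers state the order of subtraction. All listed sites had passed the authors' selection, with absolute differences of at least 25.005 points, so each gain or loss named here is a listed call and no further test was possible. The table holds no methylation level of the dendritic cell marker genes, so the cell type label could not be checked. The list also mixes any change within cells with any change in the mixture of cells, which cannot be told apart here.

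Methylation of cytosine in CpG dinucleotides is set by DNA methyltransferases and removed passively or through TET enzymes. CpG islands at gene starts are mostly unmethylated in normal cells, and dense methylation there goes along with silencing, as on the inactive X chromosome and at imprinted genes. Methylation inside transcribed genes and beyond their 3′ ends is common and has no single known meaning.

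The RefSeq promoter table, which gives the strand and 250 bases before to 50 bases after each listed start, held 136 of the 177 genes. In its windows all 79 pairs of a listed CpG and a promoter had C at the listed position and G at the next base, so positions count from 1 at the C. The sequences below show the starts of protein-coding genes where larger gains and losses fell inside such a window, together with the pairs of CpGs at Ddit3 and Ammecr1 and the X-linked loss at Pdk3. Each is printed on the strand of its gene, from RefSeq GRCm38.p6, and capitals mark the listed CpGs. Snurf (chr7:60005150-60005449, minus strand) encodes the SNRPN upstream reading frame protein of an imprinted locus, and this window holds 4 of its 9 CpGs. Col9a2 (chr4:121039316-121039615, plus strand) encodes a collagen chain of cartilage and had the largest gain of the whole list. Ddit3 (chr10:127290543-127290842, plus strand) encodes the stress-induced transcription factor CHOP, and Ammecr1 (chrX:142966677-142966976, minus strand) is an X-linked gene. Shorter stretches are shown for Tcl1 (chr12:105222910-105222987, minus strand), Stk32b (chr5:37717117-37717218, minus strand), Tnfsf13b (chr8:10006273-10006374, plus strand), Kcne4 (chr1:78816745-78816846, plus strand) and Pdk3 (chrX:93832202-93832303, minus strand).
Snurf: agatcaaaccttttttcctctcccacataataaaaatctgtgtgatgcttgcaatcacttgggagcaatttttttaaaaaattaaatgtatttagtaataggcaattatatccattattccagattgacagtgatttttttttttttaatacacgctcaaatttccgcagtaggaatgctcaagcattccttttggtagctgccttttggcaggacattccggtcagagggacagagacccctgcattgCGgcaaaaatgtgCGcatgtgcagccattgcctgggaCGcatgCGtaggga
Col9a2: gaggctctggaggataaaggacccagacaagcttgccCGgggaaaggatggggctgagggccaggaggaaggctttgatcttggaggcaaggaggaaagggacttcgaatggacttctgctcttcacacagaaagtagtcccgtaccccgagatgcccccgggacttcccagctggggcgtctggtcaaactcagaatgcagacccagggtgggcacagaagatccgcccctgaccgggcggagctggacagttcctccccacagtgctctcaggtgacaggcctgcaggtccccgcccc
Ddit3: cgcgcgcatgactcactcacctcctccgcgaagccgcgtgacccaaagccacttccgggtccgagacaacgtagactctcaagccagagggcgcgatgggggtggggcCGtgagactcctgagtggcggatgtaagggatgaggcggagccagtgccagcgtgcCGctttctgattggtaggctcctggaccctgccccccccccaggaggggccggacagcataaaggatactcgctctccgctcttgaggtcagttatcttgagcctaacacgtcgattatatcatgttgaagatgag
Ammecr1: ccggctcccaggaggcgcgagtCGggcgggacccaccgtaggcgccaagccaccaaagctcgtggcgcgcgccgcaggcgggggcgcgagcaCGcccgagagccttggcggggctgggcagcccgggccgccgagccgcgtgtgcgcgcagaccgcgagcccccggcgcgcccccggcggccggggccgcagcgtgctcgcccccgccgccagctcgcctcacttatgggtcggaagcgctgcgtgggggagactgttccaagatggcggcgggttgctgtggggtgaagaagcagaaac
Tcl1: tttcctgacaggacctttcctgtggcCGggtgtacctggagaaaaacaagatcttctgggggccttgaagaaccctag
Stk32b: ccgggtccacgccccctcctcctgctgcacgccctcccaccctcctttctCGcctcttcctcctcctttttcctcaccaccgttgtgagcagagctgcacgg
Tnfsf13b: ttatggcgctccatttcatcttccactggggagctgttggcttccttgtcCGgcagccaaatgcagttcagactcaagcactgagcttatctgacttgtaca
Kcne4: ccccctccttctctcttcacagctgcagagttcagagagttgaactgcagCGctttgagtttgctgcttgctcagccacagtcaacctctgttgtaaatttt
Pdk3: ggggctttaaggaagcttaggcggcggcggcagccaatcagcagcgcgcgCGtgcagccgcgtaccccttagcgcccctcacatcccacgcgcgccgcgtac

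Gains and losses were both frequent at gene ends. Of the 208 CpGs in the authors' deposited table, 113 were gains and 95 were losses, a share of 54.3% gains (95% exact binomial interval 47.3 to 61.2, which treats CpGs as independent and covers counting error alone), against 48.4% of all listed sites and 47.9% of the 2590 sites away from gene ends. Without the run of 9 CpGs at Snurf, 104 of 199 CpGs (52.3%) were gains. The median absolute difference was 29.1 points at gene ends and 28.7 points elsewhere. Differences of 40 points or more made up 9.62% of the CpGs at gene ends (20 CpGs) and 5.10% elsewhere, but 9 of the 20 were the Snurf CpGs, and without them the share was 5.53%. The deposited q-value was 0 for 171 of the 208 CpGs and at most 1.17e-06 for the others. These shares were set side by side and the differences between them were not tested, because CpGs of a run share their fragments and no value per library exists.

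Most of the CpGs with a known strand lay on the start side of their gene. Of 159 site-gene pairs with strand, 116 (73.0%) lay at the start and 43 at the termination end, a ratio of 2.70. For 56 pairs of 41 genes the promoter table gave no strand. Protein-coding genes had 80 pairs at starts and 23 at termination ends, a ratio of 3.48 that became 3.09 without Snurf. Genes of lncRNA had 36 and 20, a ratio of 1.80. CpG-rich sequence, which RRBS favours, is frequent at the starts of genes, and the number of CpGs read on each side is unknown, so its part in this ratio was not tested. Of the 114 CpGs at starts in the authors' deposited table, 66 were gains (57.9%), or 57 of 105 without Snurf (54.3%), and 22 of the 43 at termination ends were gains (51.2%).

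**Figure D1:**
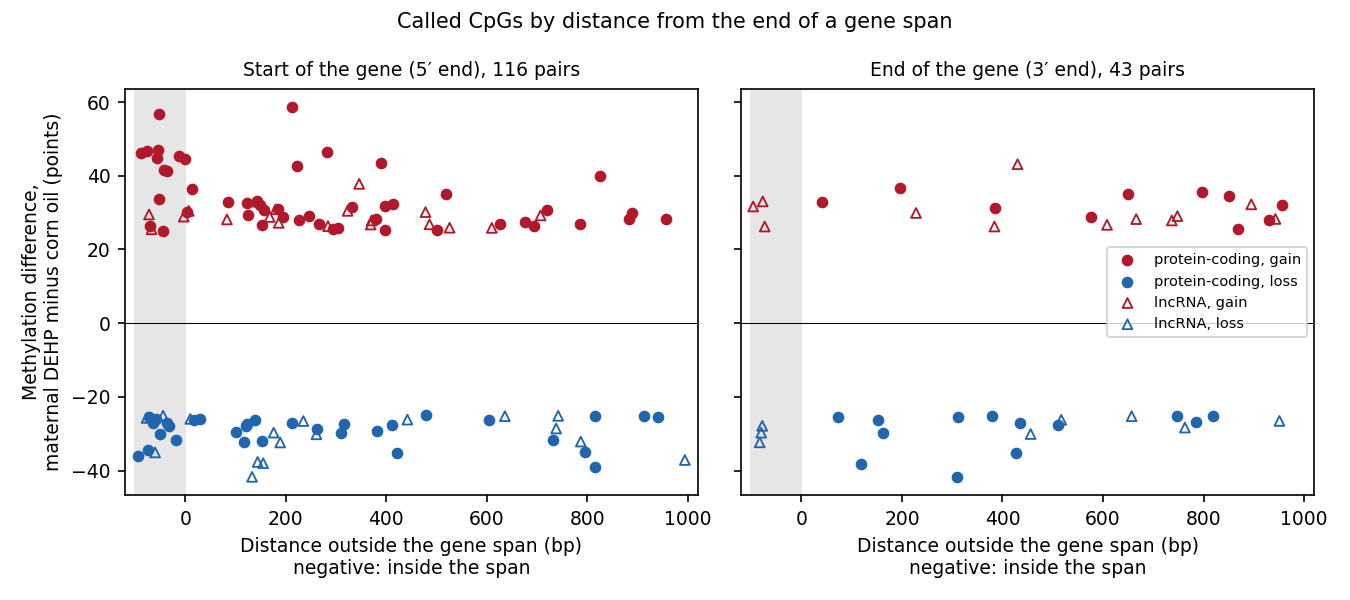
Methylation difference (percentage points, maternal DEHP minus maternal corn oil as read here, vertical axis) against distance from the end of the gene span (bp, horizontal axis, shaded part inside the span) for the 116 pairs at starts and the 43 pairs at termination ends. Filled circles are protein-coding and open triangles lncRNA genes, gains in red and losses in blue, and the cluster of gains of 41.4 to 56.6 points just inside a start is Snurf.

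The CpGs at starts lay closer to the boundary than those at termination ends. The median distance was 203 bp at starts (quartiles 75.5 and 451) and 456 bp at termination ends (quartiles 179.5 and 755.5). Of the pairs at starts 64 (55.2%) lay within 250 bp and 26 (22.4%) beyond 500 bp outside, while of the pairs at termination ends 13 (30.2%) lay within 250 bp and 21 (48.8%) beyond 500 bp. The values at starts include the 9 Snurf CpGs, all within 88 bp of the start. Leaving out Snurf moved the median over CpGs at all gene ends from 286 to 310 bp. The first 100 bp inside the start held 27 pairs, 9 of them Snurf, and the first 100 bp outside held 8. Between 100 and 200 bp outside there were 23, with 12 gains and 11 losses. Gains outnumbered losses 17 to 9 between 250 and 500 bp outside a start, and the counts were 21 to 16 within 250 bp outside and 14 to 12 at 500 to 1000 bp. Inside the start there were 15 gains and 12 losses, but without Snurf 6 gains and 12 losses. The distances were measured to the end of the gene span, which can belong to a rarely used transcript. For 101 of the 116 pairs the listed start lay within 60 bp of the span end, and 108 lay within 1000 bp of a listed start. The 8 others, at Macf1, Smarcal1, Kif26a, Tfap2a, Ghrh, N4bp2l1 and the lncRNA gene Rbm46os, lay 2866 to 46935 bp away from one. Just inside the window limit, the CpGs at Gm38438 (994 bp) and Gm36127 (998 bp) had deposited differences of -37.1 and 29.1 points, and just beyond it Tas1r3 and Gm38438 (both 1004 bp) had -27.8 and -29.2 points.

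**Figure D2:**
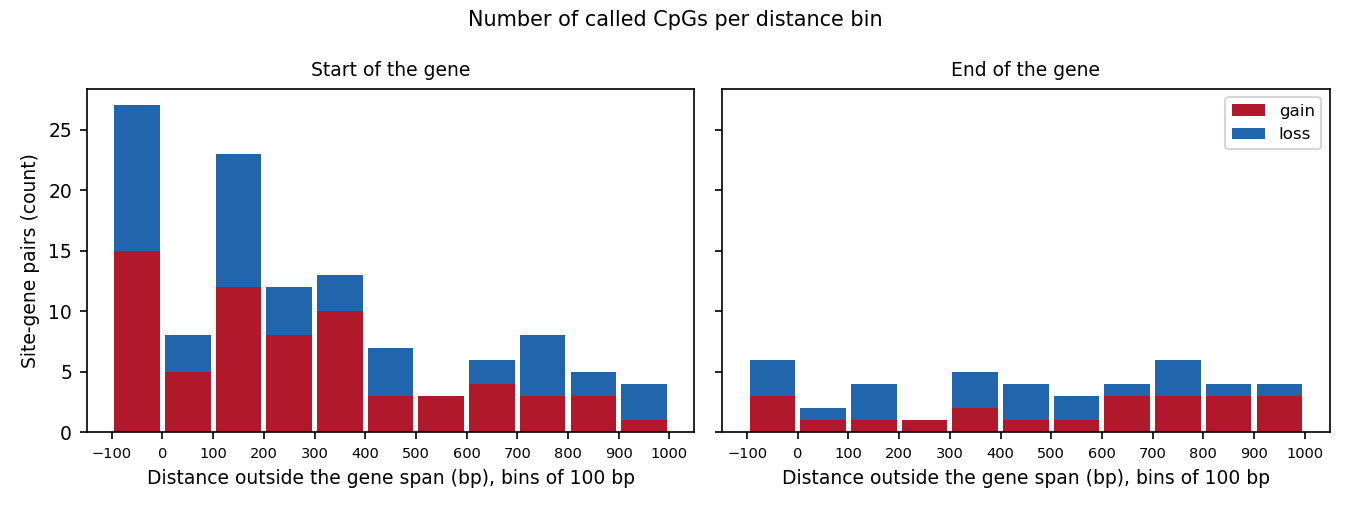
Number of site-gene pairs (vertical axis) in bins of 100 bp of distance outside the gene span (horizontal axis, the first bin inside the span), with gains in red and losses in blue. Starts have 27 pairs in the bin inside the span and 23 at 100 to 200 bp, and termination ends have at most 6 in any bin.

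The largest gains at gene starts stood at a cartilage collagen gene and an imprinted locus. In the authors' deposited table the CpG at Col9a2 (chromosome 4, position 121039353, 213 bp upstream of the start) gained 58.5 points. This CpG forms part of a CCGG and stands near the outer edge of the printed promoter window. Snurf had 9 gains, all between the start itself and 88 bp inside the gene, of 41.4 to 56.6 points (mean 46.0). The Snurf window is poor in CpGs, with 7 in 300 bases, and 4 of those 7 are in the list. At this locus the maternal allele is normally methylated and the paternal one is not. Noxa1, an activator of NADPH oxidase, had 2 gains upstream of its start, of 46.3 points at 282 bp and 31.5 points at 331 bp. Macf1, which links actin and microtubules, had a gain of 43.3 points in the authors' deposited table, 389 bp outside its span but 3831 bp upstream of its listed start. Tcl1, a coactivator of the kinase AKT known from lymphocytes, had a gain of 42.8 points 223 bp upstream. Apart from Snurf and predicted genes, the CpGs nearest to the start of a protein-coding gene were those at the ubiquitin ligase gene Rnf144b (30.2 points, 3 bp upstream) and at the kinase gene Stk32b (36.4 points, 14 bp upstream), both gains in the authors' deposited table. The CpG near Erh, a small conserved nuclear protein gene, gained 39.9 points and lay 826 bp upstream.

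Among protein-coding genes other than predicted ones, the largest losses at gene starts stood at genes of varied functions. In the authors' deposited table Cd200r2, of the CD200 receptor family of leukocytes, had a difference of -38.9 points at a CpG 816 bp upstream of its start (chromosome 16, position 44866281). Tnfsf13b, which encodes the B cell survival factor BAFF made by dendritic cells and other myeloid cells, had -36.1 points at position 10006323 of chromosome 8, 94 bp inside the span and 144 bp upstream of the nearest listed start. Its promoter window holds 6 CpGs, and the listed one is part of a CCGG. The cytokine and leukocyte lists take only some symbols. Neither holds the receptor gene Adgre5 (-25.1 points, 466 bp outside its span) or the chemerin gene Rarres2 (-33.5 points). Tnfsf13b was the 1 of 240 genes (0.417%) on the cytokine and receptor list with a listed CpG at an end. Cd200r2 was the 1 of 354 (0.282%) on the leukocyte surface list, against 0.539% of all protein-coding genes. Among these genes, -35.2 points at the sulfotransferase gene Sult2a4 and -35.0 points at the growth hormone-releasing hormone gene Ghrh followed in the authors' deposited table. The stress-response gene Ier3 came next with -34.5 points. The Ghrh CpG lay 796 bp outside the span but 2866 bp upstream of the nearest listed start. A larger loss, -41.7 points, stood at the start of the lncRNA gene Gm46055. Kcne4, a potassium channel subunit, had -32.3 points 116 bp upstream of its start, in a window with 9 CpGs.

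Fewer genes were marked at the termination end. In the authors' deposited table the largest loss was -41.7 points at both kinds of end, while the largest gain was 43.1 points at termination ends and 58.5 points at starts. In the authors' deposited table Npr2, a natriuretic peptide receptor, had a difference of -41.7 points 310 bp beyond its end. Kbtbd13, a ubiquitin ligase adaptor of muscle, had -38.3 points 119 bp beyond, and Sec14l1, a lipid-binding protein gene, had -35.1 points 426 bp beyond. Smaller deposited losses stood beyond Ncln (-29.8 points), Tuba1c (-27.7 points) and the Mediator subunit gene Med12, which had 2 of them (-26.9 and -25.2 points). The largest gains beyond a protein-coding gene in the authors' deposited table were at the histone variant gene H2al1o (36.7 points), Nt5dc2 (35.6 points), Emc9 (35.1 and 28.7 points), Btbd17 (34.4 and 25.4 points), Fam186b (32.9 points) and Crtc1, a coactivator of CREB (32.1 points). The 2 CpGs beyond Emc9 lie inside the neighbouring gene Psme1, a subunit of the proteasome activator PA28, whose own start gained 26.4 points at a CpG 70 bp inside.

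**Figure D3:**
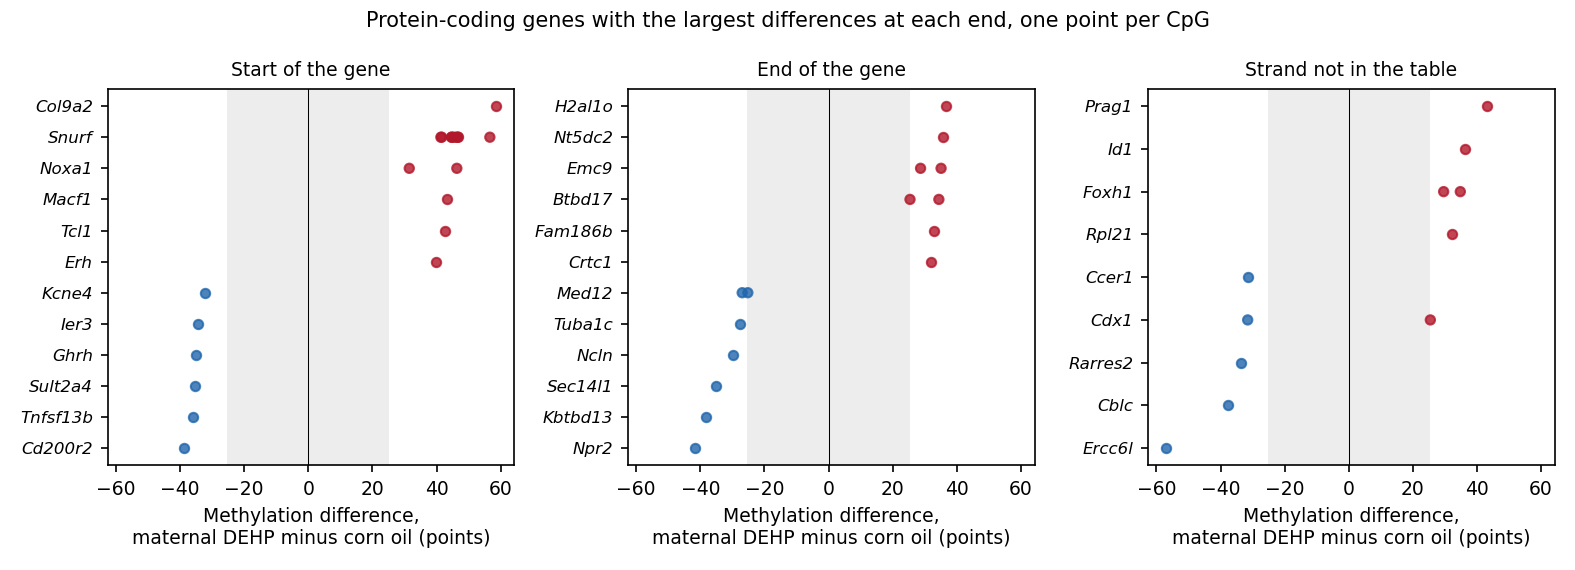
Methylation difference (percentage points, horizontal axis) of each listed CpG at the protein-coding genes, other than predicted ones, with up to 6 of the largest gains and 6 of the largest losses at starts, at termination ends and where strand was not in the table. Each point is a CpG, gains in red and losses in blue, and the shaded range of 25 points on either side of 0 holds no listed site, with Col9a2 at 58.5 and Ercc6l at -56.9 points the extremes. Cdx1 has a gain and a loss.

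For genes without strand in the table the end could not be named. Ercc6l, an X-linked helicase gene of mitotic chromosomes, had the largest loss of the whole list in the authors' deposited table, -56.9 points at position 102157115 of the X chromosome, 24 bp outside its span. Cblc, a ubiquitin ligase of the CBL family, had -37.8 points 89 bp inside, and Rarres2, whose product chemerin attracts dendritic cells, had -33.5 points 950 bp outside. On the gaining side of the authors' deposited table stood Prag1, a pseudokinase (43.0 points, 548 bp outside), Id1, an inhibitor of helix-loop-helix factors (36.4 points, 815 bp outside), and Foxh1, a partner of SMAD proteins (34.8 and 29.6 points).

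Most genes rested on a single CpG. One listed CpG stood at 149 of the 177 genes, and 28 genes had 2 or more. By gene, 88 had gains alone, 83 losses alone and 6 both. Ddit3 had 2 gains of nearly the same size in the authors' deposited table, 33.1 points at 142 bp and 32.9 points at 86 bp upstream of the start. At Ammecr1 the gains were 30.6 points at 157 bp and 27.9 points at 227 bp upstream, and at the AP-2 factor gene Tfap2a they were 25.5 and 25.9 points at CpGs 10 bp apart. Losses came together at Akap12, a kinase scaffold (-25.9 and -25.5 points), and at Atad3a, a mitochondrial membrane ATPase (-29.4 and -27.2 points). Opposite directions met within 9 bp at the homeobox gene Cdx1 (25.5 and -31.5 points) and within 69 bp at the deubiquitinase gene Usp9x (-25.01, 25.3 and 30.3 points). Mettl22 had 26.8 and -25.3 points at CpGs 126 bp apart, and the predicted gene Gm3993 had 52.05 and -25.7 points at CpGs 23 bp apart. Of 35 pairs of adjacent CpGs at gene ends that lay within 100 bp of each other, 30 had the same direction and 5 opposite ones. The run of 9 CpGs at Snurf, all gains, supplied part of the pairs with the same direction.

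Sorted by what their products do, the marked genes were spread over many functions. The roles were assigned by hand from general knowledge after the values were seen, to all but 20 of the 108 protein-coding genes with names other than predicted ones, and they support no test. How many genes of each role the gene table holds was not counted, so the size of a group is no result. The 15 transcription factor genes comprised 11 with gains alone, 2 with losses alone and 2 with both, beside gains alone at 88 of all 177 genes, and their differences ran from -31.5 to 36.4 points. Besides those named before, they included Zbtb14 (35.0 points), Irx5 (29.2 points), Hoxd13 (28.2 points), Nr2f2 (27.9 points, beyond its end), Barx1 (27.3 points), Gbx2 (25.4 points), Hoxa9 (-26.2 points) and Foxj1 (-26.3 points) in the authors' deposited table. Channels and transporters had 4 genes with losses alone, Kcne4, the nicotinic receptor gene Chrna7 (-27.4 points), Slc13a3 and Slc25a45, and 1 with a gain, the mechanosensitive channel gene Piezo1 (30.8 points). Of 11 ligands and receptors 7 had losses alone and 4 gains alone; those with gains were the Wnt receptor gene Fzd4 (29.0 points), Lrp4 (27.5 points), Ephb3 (27.0 points) and Sorcs2 (26.8 points). Metabolic and mitochondrial genes (5 with gains, 7 with losses), cofactors and chromatin genes (5 and 4), cytoskeletal genes (3 and 5), signalling genes (5 and 3) and protein turnover genes (5 and 3, and Usp9x with both) were divided. In the last group Pomp, a proteasome assembly factor (31.7 points), and Psme1 had gains, while Cblc, Kbtbd13 and the protease gene Prtn3 had losses.

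**Figure D4:**
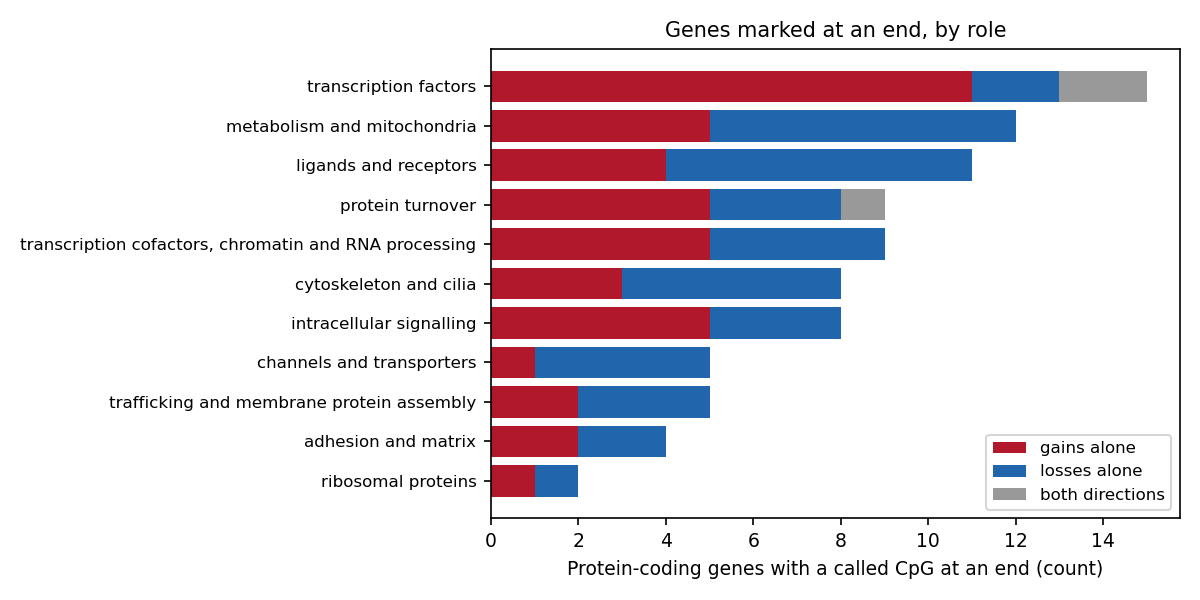
Number of protein-coding genes with a listed CpG at an end (horizontal axis) by role (vertical axis), split into genes with gains alone (red), losses alone (blue) and both (grey). Transcription factors have 11 genes with gains alone of 15, and the 20 genes not given a role are not shown.

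Gene families and lists drawn by symbol were read against the 0.539% of protein-coding genes that carried a listed CpG at an end. The developmental factor families (homeobox, Sox, Fox, T-box and similar) had one at 6 of 230 genes (2.61%), 4 with gains and 2 with losses. The ubiquitin pathway with its Kelch adaptors had 6 of 483 (1.24%) and cytoskeletal and motor genes 5 of 429 (1.17%). The list of matrix genes and their proteases had 2 of 161 (1.24%), Col9a2 and Adam2. Adam2 is on it by symbol and not by protease activity. Shares of 0.735% to 0.897% were found for G protein-coupled receptors (2 of 223), adhesion molecules (2 of 229), ion channels (2 of 242), ribosomal and translation genes (2 of 251), protein kinases (2 of 253) and chromatin regulators (2 of 272). Protein phosphatases had 1 of 154, solute carriers 2 of 439, cytokines and their receptors 1 of 240 (Tnfsf13b), drug and lipid enzymes 1 of 343, leukocyte surface genes 1 of 354 (Cd200r2), small GTPase genes 1 of 368 and zinc finger genes 1 of 532. None of the 1518 odorant, pheromone and taste receptor genes had one. The lists take only some of a family's symbols, and the channel gene Piezo1, for example, is not on the ion channel list. With 6 genes or fewer in each family, and with coverage unknown, no family was tested.

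Small lists held at most 1 gene each, so their shares rest on single genes beside the 0.539% of all protein-coding genes. Of 13 neurotrophin and receptor genes Sorcs2 (7.69%) had a listed CpG at an end in the authors' deposited table, and Ntf3, named in the title of the series, had none. Snurf was the 1 of 36 imprinted genes (2.78%), and Nr2f2, an orphan nuclear receptor gene, the 1 of 35 nuclear receptor and phthalate-linked genes (2.86%). None of the marker genes of conventional dendritic cells (14 genes), plasmacytoid dendritic cells (5), B cells (7), T and NK cells (8), macrophages, monocytes and neutrophils (8) or erythroid cells (5) had a listed CpG at an end. A CpG with -26.1 points lay 152 bp beyond Prtn3, a protease gene of neutrophils that was not on the marker list. An absent CpG may be uncovered or may differ by less than 25.005 points, so these zeros do not show unchanged methylation. At a share of 0.539% over all protein-coding genes, marker lists this short would mostly hold no gene.

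The promoter windows that held a listed CpG of their own gene were richer in CpGs than promoters in general. There were 45 such CpGs, 26 gains and 19 losses in the authors' deposited table, in 37 windows of 36 genes. The 24 windows of protein-coding genes had a median of 22 CpGs in 300 bases (quartiles 15.5 and 29.8) and 65.3% G and C, against 13 CpGs (quartiles 4 and 24) and 56.3% in all 21263 windows of protein-coding genes. The 13 windows of lncRNA genes had a median of 12 CpGs, against 4 in 11588 windows. Among protein-coding genes the median was 22 CpGs in the 14 windows with gains and 25 in the 10 with losses. The letters CCGG, which read the same on both strands, were in every one of the 37 windows, against 52.8% of all windows of both kinds, and 16 of the 45 CpGs were themselves the middle of a CCGG. The GC box GGGCGG, sought on both strands, was in 59.5% of the 37 windows and in 35.7% of all windows. The TATA box core TATAAA, also sought on both strands, was in 5.41% of the 37 windows and in 13.6% of all. The E-box CACGTG was in 8.11% of the 37 windows and in 7.15% of all, and CGCG was in 64.9% and 38.0%. A window was taken only where it held a listed CpG, and a window with more CpGs had more that could be listed. The 16 CpGs in the middle of a CCGG put that motif into their windows by definition. These motifs other than the TATA box core contain a CpG, and RRBS reads fragments next to its cut sites. The windows that could enter the list were therefore not a sample of all promoters. The labels do not name the enzyme, and the part of the method in these shares was not tested.

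**Figure D5:**
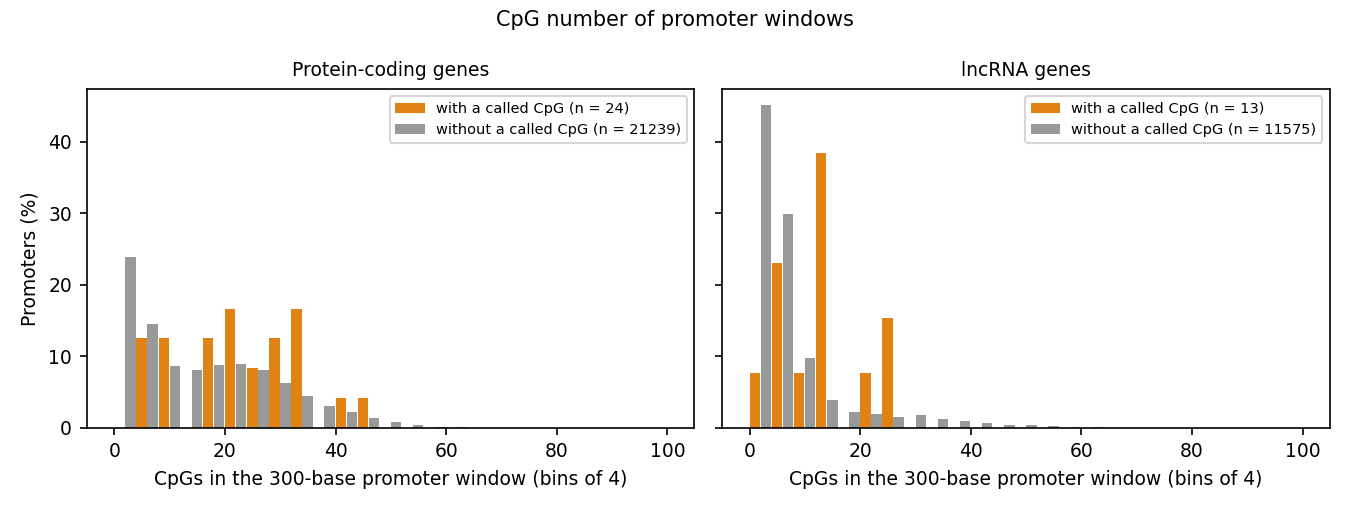
Share of promoter windows (percent, vertical axis) by number of CpGs in 300 bases (horizontal axis, bins of 4), for windows with a listed CpG of their own gene (orange, 24 protein-coding and 13 lncRNA windows) and for the other windows (grey). Medians are 22 and 12 CpGs with a listed CpG, against 13 and 4 over all windows of protein-coding and lncRNA genes.

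Several CpGs stood between neighbouring genes. A gain of 25.4 points in the authors' deposited table lay 501 bp upstream of the homeobox gene Gbx2 and 398 bp upstream of the predicted gene LOC102637806, which runs the other way. The CpG at Irx5 (29.2 points) lay 707 bp upstream of the lncRNA gene Crnde, and that at Hoxd13 (28.2 points) 378 bp outside the lncRNA gene Gm31790. A CpG with -25.5 points lay 941 bp outside the span of N4bp2l1, 5094 bp upstream of its listed start, and 312 bp beyond N4bp2l2. In all, 83 of the 208 CpGs (39.9%) also lay inside the span of another protein-coding or lncRNA gene, so an end named here need not be the transcript that a CpG belongs to.

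Other listed CpGs inside the same genes, past the 100 bp limit of the window, went either way. Of the 118 protein-coding genes, 21 carried another listed CpG within their span, in the direction of the end in 8, in the other direction in 8 and in both in 5. The gain of 58.5 points at the start of Col9a2 stood with 2 losses inside the gene, of -30.8 and -27.4 points in the authors' deposited table. The gains at the starts of Kif26a (29.9 points) and Pnmal2 (32.6 points) stood with deposited differences of -25.9 and -26.9 points inside these genes. The Kif26a gain lay 889 bp outside the span but 3123 bp upstream of the listed start. Nr2f2 gained 27.9 points beyond its end, with -26.5 points inside. Prag1 had a second gain of 46.6 points inside its span in the authors' deposited table, and Gbx2 gains of 30.6 and 31.9 points. At the X-linked protocadherin gene Pcdh19 a difference of -25.4 points at the start stood with -28.9 points inside, and at Cldn34c1 one of -27.1 points stood with -35.5 and -28.4 points. At both genes the inner CpGs lay just past the 100 bp limit, close to the CpG at the start.

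At the ends of lncRNA genes 34 of 67 CpGs were gains in the authors' deposited table. Nearly all of these genes carry predicted names, and the functions of their RNAs are not described here. The largest gains were 43.1 points beyond Gm34905, 37.8 points upstream of LOC108168713 and 33.0 points inside the end of 1700055K11Rik, with a second gain of 31.7 points. The largest losses were -42.8 points at Gm39592, whose 3 CpGs within 40 bp were all losses, -41.7 points upstream of Gm46055, with a second loss of -29.7 points, and -38.0 points upstream of Gm29480. The 2 lncRNA genes with other names, Crnde and Rbm46os, had gains of 29.2 and 30.5 points.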

How the data were processed

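The 12 RRBS libraries (6 maternal DEHP, 6 maternal corn oil) had been compared by the authors with methylKit on GRCm38 (mm10), per the submitters' processing notes. Not given in the sources used here are the form of the test, the aligner, any coverage minimum and which methylKit version was run. The authors' deposited table of 2798 CpGs gives for each CpG a difference of methylation in percentage points together with its p-value and q-value, per the file headers; its hypermethylated (1354) and hypomethylated (1444) parts were deposited separately. The table holds no value or depth per library, so no replicate error or test could be computed, and intervals cover counting error only.

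Gene spans came from the GRCm38.p6 gene table of RefSeq and strand and sequence from the RefSeq promoter table, which holds 27025 of 34627 protein-coding and lncRNA genes. It gives no exons. A CpG at both ends of a gene was given to the nearer end. Window assignment was tested on simulated data. CpGs within 1 kb were merged into loci as an alternative. Python 3.11.15 and pandas 2.3.3 were used.

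The CpGs and the gene lists were chosen with earlier results of these data known. Named were, among protein-coding genes other than predicted ones, the 6 largest gains and 6 largest losses at each kind of end, genes with 2 or more CpGs, those nearest to a start, those sharing a CpG and at most 4 genes per list, by size, and 3 lncRNA genes in each direction. Some of these 79 genes are not reported here. Further genes were named for their roles after their values were seen. Alternatives changed the windows, the gene types, the minimum difference, the chromosomes and the unit counted.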

Additional observations from a re-analysis of the deposited data

How the results depend on the processing

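Of 73 values under 13 settings, 52 kept to the limits set for them (counts within 1.5 times). The setting without Snurf and that with listed starts were chosen after seeing the data. CpGs at gene ends numbered 91 at a difference of at least 30 points, 20 at 40 points, 370 with 2000 bp outside, 341 with 500 bp inside and 134 without predicted genes, in place of 208. Genes numbered 77, 12, 306, 291 and 110 under the same settings, in place of 177. At 40 points 80.0% of CpGs were gains, in place of 54.3%, with 9 Snurf CpGs among 20. The share of pairs at starts was 87.5% at 40 points, 80.4% with 500 bp outside and 61.5% with 2000 bp outside, in place of 73.0%. The median absolute difference was 34.7 and 44.7 points at 30 and 40 points by construction, in place of 29.1. The median distance to the nearer end was 157 and 68.5 bp at 30 and 40 points, 147 bp with 500 bp outside, 799 bp with 2000 bp outside and 379 bp with 0 bp inside, in place of 286 bp; the windows set the last 3. For the shorter distances at larger differences and the smaller start share in wider windows the cause was not tested. Reading positions as counting from 0 moved none of the values, nor did leaving out the X chromosome move any beyond its interval. Depth per CpG is unknown and limits every value.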

Other observations

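The X chromosome held 24 of the 208 CpGs at gene ends (11.5%) and 209 of the 2590 elsewhere (8.07%). In female cells one X chromosome is inactive and many of its gene starts are methylated. At X-linked gene ends 11 CpGs were gains and 13 losses in the authors' deposited table. Gains stood at the starts of Ammecr1 and of Hccs, a cytochrome heme lyase gene (32.1 points, 149 bp upstream), and losses at Pdk3, a pyruvate dehydrogenase kinase gene (-29.4 points), at Pqbp1, a splicing-linked gene (-29.2 points), and at Nexmif (-27.9 points). Chromosome 7 held 25 of the CpGs at gene ends, 9 of them at Snurf. Another called CpG lay within 1 kb of 37.0% of the CpGs at gene ends, including the 9 at Snurf, and of 30.6% of those elsewhere. None of these differences was tested.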
